A study of Bombus terrestris with 20 samples.

Results

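The brain comparison of the study set ovary-active against ovary-inactive workers of the bumblebee *Bombus terrestris*, and is described here across all genes of the brain table. Its members are the 6 brain libraries that the sample labels place in the 2 phenotypes, 3 of ovary-active and 3 of ovary-inactive workers, of 20 libraries in the series. The table held 10043 genes, of which 9490 had a mean of at least 10 over the 6 libraries and were tested. The workers, of the subspecies *audax*, came from colonies that held their queen and had passed the competition point, the time from which workers contest egg laying. They were scored by dissection, and ovary-active workers had ovaries scoring 4 to 6 and an age of 22 to 34 days, whereas ovary-inactive workers had ovaries scoring 0 to 1 and an age of 24 to 32 days. No treatment was given, so the phenotype was observed in the workers and not assigned to them. Each library was a pool of the brains of 7 workers, except replicate 2 of the ovary-inactive phenotype, which the supplement of the study names as the pool of 14. That pool joined 2 pools that had each given too little RNA. The ovary-active brains came from 6 colonies and the ovary-inactive brains from 11, so colony and phenotype cannot be told apart. Workers of 1 ovary-inactive brain pool were taken from other, later acquired colonies. The supplement pairs that pool by age with ovary-active pool 1, and the pool of 14 with ovary-active pool 2. The sources used here do not say which replicate the later pool became. Pools of both phenotypes were matched by worker age, without a statement of how every match maps to the replicate numbers. Attached gland and muscle were removed at dissection.

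Ovary activity in worker bees is tied to hormones made in the head. Neurosecretory cells of the brain and the adjoining corpora allata, the source of juvenile hormone, act on the fat body, which makes yolk protein, and on the ovary. In bumblebees juvenile hormone promotes egg production by workers, and dopamine, octopamine and neuropeptides act in the brain on behaviour towards nestmates. A phenotype difference in the brain could therefore lie in peptides, amine receptors, hormone response genes or the machinery of synapses, and these groups were examined by name. In a pool of whole brains, fewer cells of a type and less RNA per cell cannot be told apart.

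The values are normalized counts, which the authors made by dividing estimated counts by normalization factors. They are not divided by transcript length, so a rank by normalized count is not a rank by number of transcripts. Reads counted in the genes of the table numbered 23521514 to 28508847 a library, as recovered from the value of a single read in each library. Reads that were sequenced but not pseudoaligned are not among them. By median percentile, lists of neuron genes lay higher in brain than in fat body and ovary, for some of them by a small margin. Synaptosomal-associated protein 25 (LOC100643971), part of the machinery that fuses synaptic vesicles with the membrane, ranked 137 of all genes by its mean, and the voltage-gated sodium channel para (LOC100642930) ranked 517. The 7 precursors of neuropeptides lay at a median percentile of 62.7 of the brain table, 14.3 of the fat body table, and 20.9 of the ovary table. In the same order, the 4 genes of vesicle release lay at 94.1, 68.7 and 76.0. The 2 voltage-gated channels lay at 57.1, 51.9 and 15.6.

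Transcripts of the brain spread over many genes of moderate abundance, and the set of the most abundant genes by median was nearly the same in both phenotypes. The median of the gene means was 1042 normalized counts. A mean of at least 1000 was reached by 5140 genes, a mean of at least 10000 by 344, and a mean of at least 100000 by 18. In 5 of the 6 libraries the 10 highest genes held 8.38% to 10.3% of the total, and 570 to 692 genes were needed to reach 50% of it. In ovary-active replicate 2 the 10 highest genes held 23.9%, and 246 genes sufficed. Of the 100 genes with the highest median within each phenotype, 99 were shared, and by phenotype mean 87 were shared.

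Most of the leading genes carry no name in the sources used here. LOC100647892 was highest by mean and by median, with 372740, 363405 and 401806 normalized counts in ovary-active replicates 1 to 3 and 391005, 492933 and 400114 in ovary-inactive replicates 1 to 3. Its phenotypes overlapped, and its log2 fold change, ovary-active minus ovary-inactive on log2(normalized count + 1), was -0.17 with a 95% interval of -0.56 to 0.22. LOC100646048 followed at 312394 to 327459, with a log2 fold change of -0.04 (interval -0.34 to 0.27). LOC105666000 (246662 to 326514), LOC100650789, LOC100650460 and LOC105667095 came next by median.

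Among the leading genes with a name were an icarapin-like gene (LOC100642807), a poly(U)-specific endoribonuclease homolog (LOC100644025), and a copper-zinc superoxide dismutase (LOC100642760). Icarapin is known as an allergen of honey bee venom, the endoribonuclease family cuts RNA at uridines, and the dismutase removes superoxide. LOC100642807 stood at 129570, 198247 and 137458 in ovary-active replicates and 132509, 155537 and 134188 in ovary-inactive replicates, so that only ovary-active replicate 2 lay above every ovary-inactive pool. LOC100644025 ranged from 120250 to 139337 and LOC100642760 from 93537 to 133499, both with overlapping phenotypes. Further genes of high abundance were elongation factor 1-alpha (LOC100631084, 68792 to 88740) and tubulin beta-1 (LOC100644287, 50475 to 78657), both used by all cells. Arginine kinase (LOC100631087), which buffers ATP in insect nerve and muscle, ranged from 41537 to 52225.

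**Figure D1:**
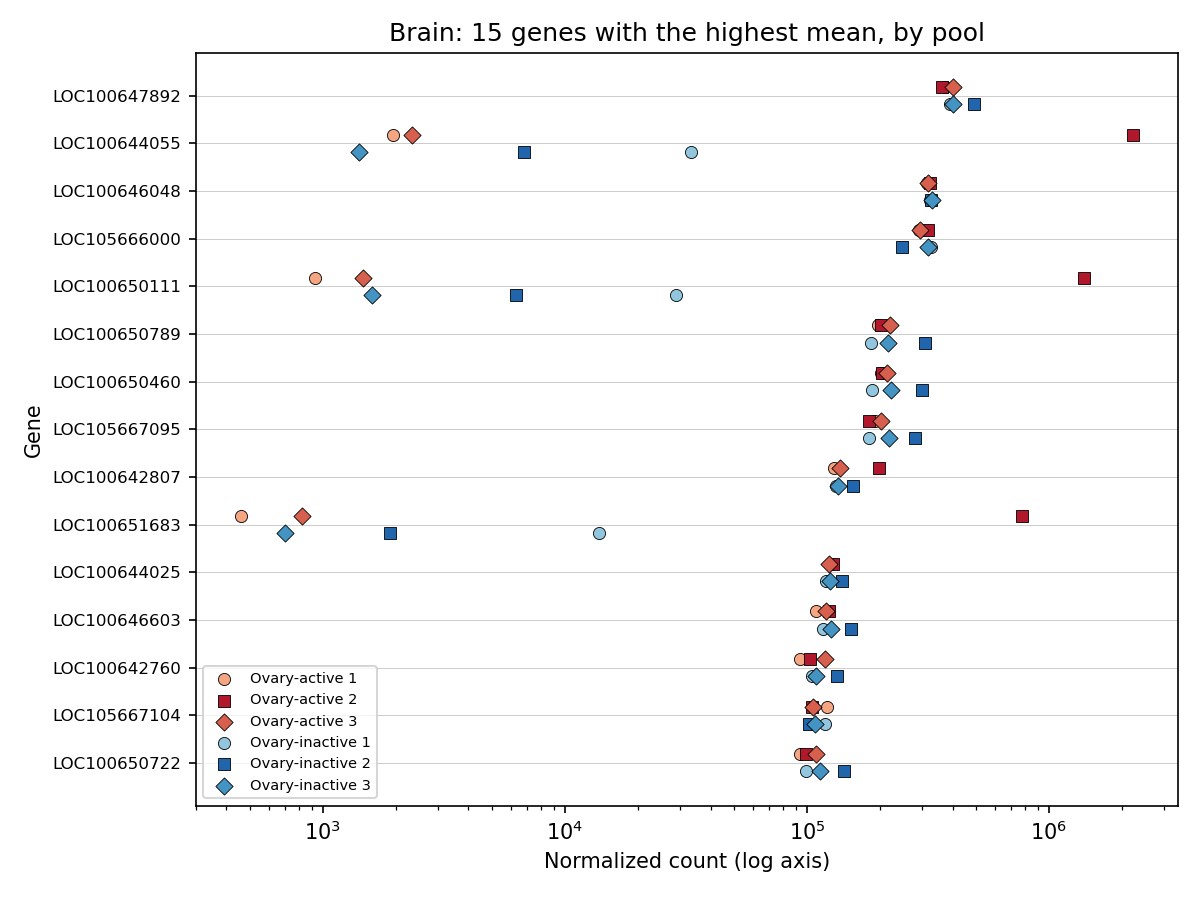
Normalized counts (log axis) of the 15 genes with the highest mean over the 6 brain libraries, one row a gene and one point a library, with ovary-active pools in red shades and ovary-inactive pools in blue shades. For 12 of the 15 genes the 6 points lie close together, and for LOC100644055, LOC100650111 and LOC100651683 the point of ovary-active replicate 2 lies far to the right of the others.

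The mean ranked 3 genes among the first 15 through a single pool, while their medians placed them below rank 1000. LOC100644055 had 2224535 normalized counts in ovary-active replicate 2, 33120 in ovary-inactive replicate 1, and 1408 to 6754 in the other 4 pools. LOC100651683, a royal jelly protein like gene (RJPL) of the family secreted by head glands of bees, had 776374 in ovary-active replicate 2, 13866 in ovary-inactive replicate 1, and 458 to 1889 elsewhere. In all, 49 genes with a mean of at least 50 were over 8-fold above the median of the other 5 libraries in ovary-active replicate 2, one of them being LOC100648536, described below. They held 24.8% of that library, 0.622% of ovary-inactive replicate 1, and 0.0746% to 0.158% of the other 4. Among these 49 genes, 36 had their second highest value in ovary-inactive replicate 1, and in 23 this pool was over 2-fold above the 4 other libraries. These 2 pools belong to different phenotypes. No gene of the 49 but LOC100648536 was called by limma, which follows largely from choosing genes by their height in 1 ovary-active pool, as this widens the spread within that phenotype.

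The phenotype itself left little in the brain transcriptome. With limma and Benjamini-Hochberg adjustment over 9490 genes, 2 genes were ovary-active worker DEGs (0.0211% of the genes tested) and 0 were ovary-inactive worker DEGs (0%). Taking p without adjustment, 105 genes (1.11%) were under 0.05, 38 of them (0.4%) higher in ovary-active workers and 67 (0.706%) lower. Of the genes that could be expressed as whole reads, edgeR called 2 and 0, and DESeq2 called 3 and 3, and limma with library quality weights on all genes called 16 and 18. The median log2 fold change over all genes tested was 0.0072 and the median absolute log2 fold change was 0.068. The change was under 0.5 in size in 96.9% of genes and over 1 in 90 genes.

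The intervals, which are not adjusted for the number of genes tested, state which sizes of difference remain compatible with the values of each gene. For 8456 genes (89.1%) the 95% interval of the log2 fold change lay wholly within a 2-fold change in either direction. The median half-width of the interval was 0.33. It was 0.75 for genes with a mean from 10 to 100, 0.35 from 100 to 1000, 0.28 from 1000 to 10000, and 0.32 at 10000 and above. Among the 1132 genes of the lowest class 50.9% had an interval within a 2-fold change, against 97.5% of the 4796 genes from 1000 to 10000. With 3 pools against 3, the interval of a scarce transcript thus often reached a 2-fold difference, whereas for most genes of moderate abundance it did not. Being called after adjustment is a stricter demand. In data simulated as described below, the brain fit called 44% of genes with a log2 change of 1. Whether that rate holds for the brain pools was not tested.

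**Figure D2:**
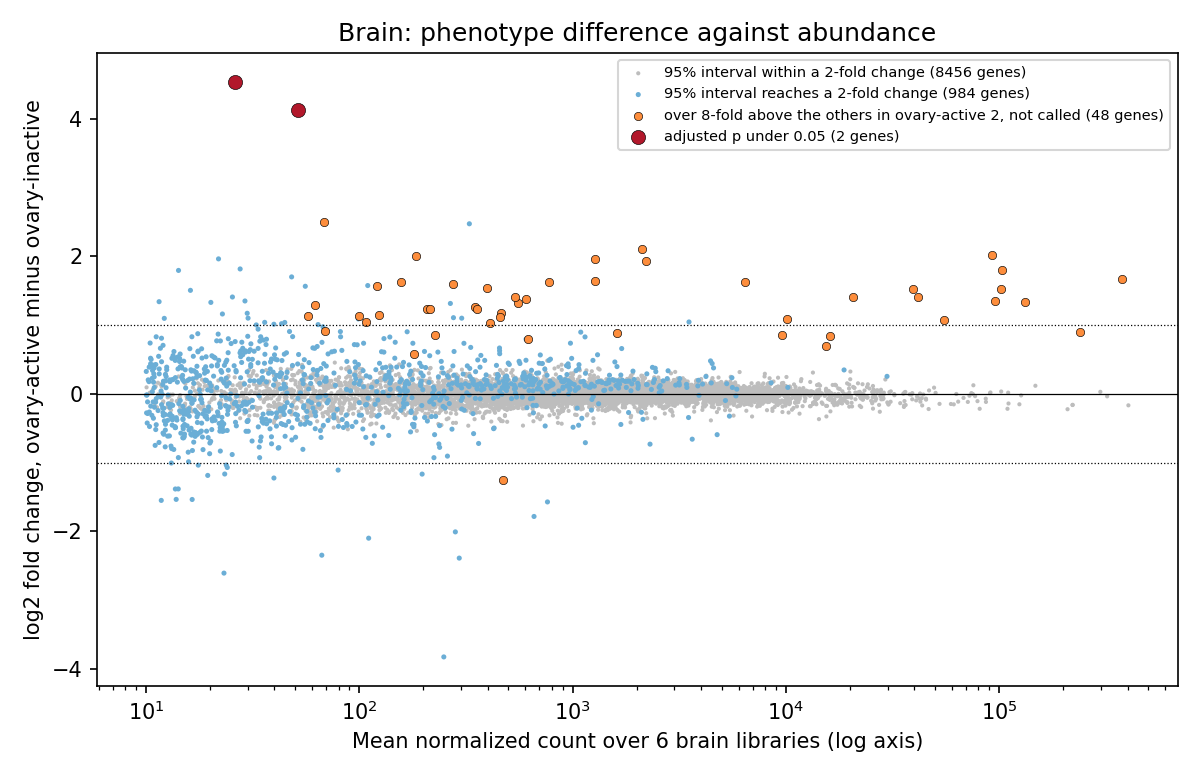
The log2 fold change of each of the 9490 genes tested (ovary-active minus ovary-inactive, vertical axis) against its mean normalized count (log axis), with dotted lines at a 2-fold change. The 2 called genes lie at 4.12 and 4.54 with low means, the genes raised in ovary-active replicate 2 lie mostly between 0.5 and 2.5 without being called, and the 8456 genes in grey have intervals within a 2-fold change.

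Both DEGs were scarce transcripts that were close to absent in ovary-inactive brains. LOC100648536 had 118, 90.7 and 86.3 normalized counts in ovary-active replicates 1 to 3 and 3.94, 5.21 and 4.85 in ovary-inactive replicates. All ovary-active pools lay far above all ovary-inactive pools, with a log2 fold change of 4.12 (SE 0.25, interval 3.53 to 4.72, adjusted p = 0.0158). LOC105665834 had 54.6, 53.0 and 44.7 in ovary-active and 0.986, 0.868 and 1.94 in ovary-inactive replicates, again without overlap, and a log2 fold change of 4.54 (SE 0.33, interval 3.74 to 5.34, adjusted p = 0.0273). The adjusted p rested on every pool. Without any single library it was 0.0511 to 0.261 for LOC100648536 and 0.0722 to 0.445 for LOC105665834, and neither was called, while the log2 fold changes stayed at 3.99 to 4.21 and 4.42 to 4.74. With the replicate number as a block in limma, the adjusted p was 0.842 for LOC100648536 and 0.878 for LOC105665834, and neither was called. In reads, LOC100648536 rested on 283 reads in the ovary-active and 15 in the ovary-inactive pools, and LOC105665834 on 145 and 4. The ratio of LOC105665834 was 40.5, with an exact binomial interval of 15.5 to 151 that covers counting error only.

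These genes had the 2 highest mean normalized counts of the active ovary. In the ovary table LOC100648536 ranked first and LOC105665834 second in ovary-active workers, with means of 1147412 and 616405 normalized counts, which are scaled apart from those of brain. Their means in ovary-active brains, 98.4 and 50.8, correspond to 0.00857% and 0.00824% of those ovary levels. They were also higher in ovary-active fat body, where LOC100648536 had 56.5, 93.8 and 12.2 against 2.23, 3.43 and 2.59 in ovary-inactive replicates. No function is given for either gene in the sources used here.

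Other abundant ovary transcripts were therefore read in the brain libraries. A list was made of the 15 genes highest in the active ovary whose mean in ovary-inactive brains was under 10, a condition that limits their level on the ovary-inactive side. It holds both DEGs. Of the 13 others, 4 were higher in all ovary-active than in all ovary-inactive brains, and 9 overlapped. These 4 had a mean under 10 over the 6 libraries and were not tested. The 1.84% of tested genes with this order is therefore no background for them. LOC105665921 had 11.7, 11.8 and 8.13 in ovary-active brains and 2.96, 0 and 0 in ovary-inactive brains, or 0.0109% of its level in the active ovary. LOC105666656 had 8.78, 7.07 and 6.10 against 23.7, 1.74 and 2.91, also 0.0109% in ovary-active brains. Over the 15 genes the level in ovary-active brains was 0.00668% to 0.0579% of that in the active ovary. The 13 others summed to 77.1 to 114 normalized counts in the ovary-active and 34.9 to 103 in the ovary-inactive libraries, so the groups overlapped. LOC105665921 was listed at 0 in ovary-inactive replicates 2 and 3, LOC100652273 in ovary-inactive replicate 3, and LOC100644978 in ovary-active replicate 2. The part of ovary RNA in the 2 brain DEGs was not tested.

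Other genes whose phenotypes did not overlap were not called. Of the genes tested, 175 (1.84%) were higher in every ovary-active than in every ovary-inactive pool, and 255 (2.69%) the reverse. LOC100650436 had 324, 957 and 398 in ovary-active and 47.3, 131 and 113 in ovary-inactive brains, with a log2 fold change of 2.47 and an interval of 1.19 to 3.76. In fat body LOC100650436 had the second highest mean normalized count of ovary-active workers and its log2 fold change was 4.31. LOC100652170, the fat body gene with the highest mean normalized count, overlapped between phenotypes in brain, at 629 to 1120 in ovary-active and 949 to 1809 in ovary-inactive pools. The part of fat body RNA in the brain values of LOC100650436 was not tested.

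On the ovary-inactive side LOC100646044 had the largest difference, with 18.5, 18.9 and 25.4 in ovary-active and 153, 1109 and 171 in ovary-inactive brains. Its log2 fold change was -3.83 (interval -5.65 to -2.01), and the highest value, in replicate 2, widened the spread of its group. LOC100652247 was lower in abundance and also had its highest value in ovary-inactive replicate 2, with 3.67, 7.76 and 3.82 against 17.6, 76.4 and 30.1. In LOC105666343 and LOC105666555 ovary-inactive replicate 2 was likewise over 3-fold above the other 2 ovary-inactive pools, so the size of their change was set largely by that pool. LOC100645366 differed less but more evenly, with 1023, 1095 and 1102 in ovary-active and 1519, 1425 and 1387 in ovary-inactive brains, and a log2 fold change of -0.43 (interval -0.62 to -0.24). LOC100646044, LOC100650436 and LOC100645366 were called by DESeq2 on whole reads.

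A pair of genes with the same name differed in opposite directions, neither being called. LOC100643074 and LOC100643193 are both UPF0454 protein C12orf49 homologs. LOC100643074 had 170, 190 and 114 in ovary-active and 97.5, 66.4 and 20.4 in ovary-inactive brains, while LOC100643193 had 122, 77.8 and 174 against 219, 320 and 271. Their sum was 267 to 292 in ovary-active and 291 to 387 in ovary-inactive libraries. LOC100643193 had no match in the RefSeq gene table of assembly iyBomTerr1.2. The similarity of their sequences was not measured, and whether reads were shared between them was not tested.

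**Figure D3:**
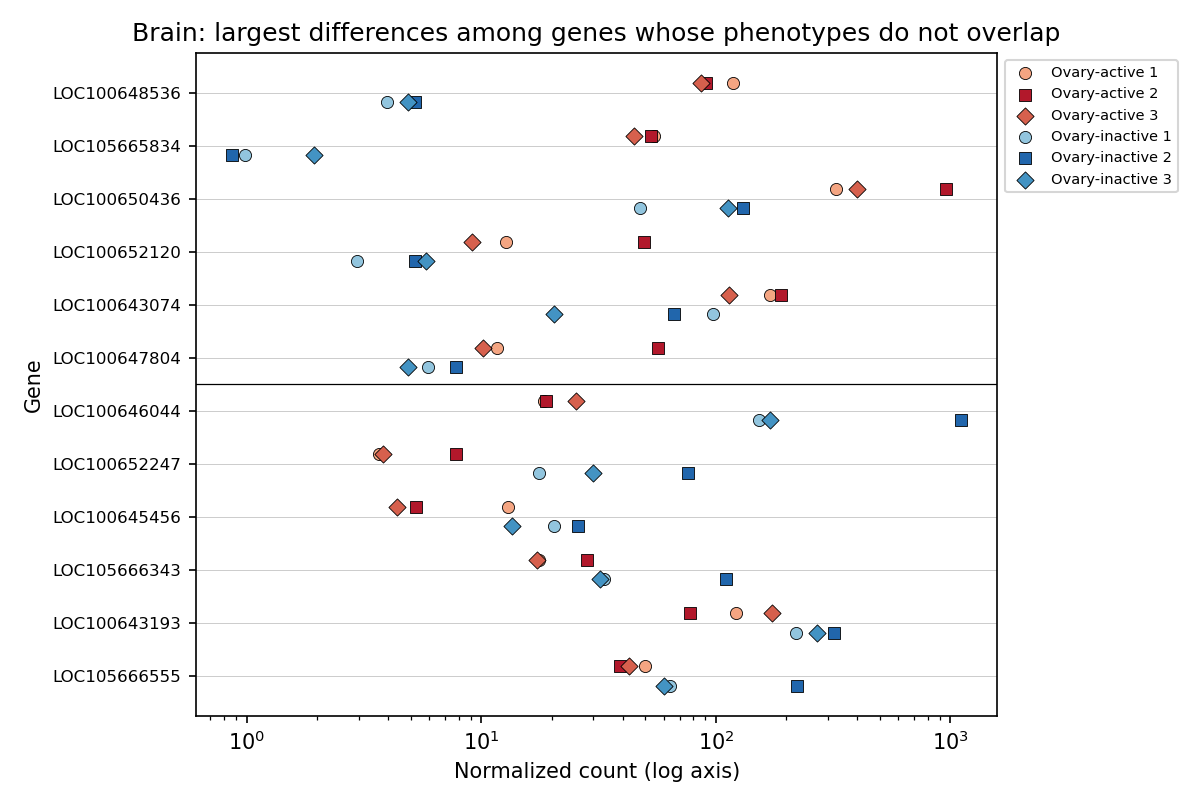
Normalized counts (log axis) in each brain pool of the 6 genes per direction with the largest log2 fold change among those whose phenotypes do not overlap, with genes higher in ovary-active workers above the line. LOC100648536 and LOC105665834 form tight groups, whereas in LOC100650436, LOC100652120 and LOC100647804 ovary-active replicate 2, and in LOC100646044, LOC100652247, LOC105666343 and LOC105666555 ovary-inactive replicate 2, lies apart from the rest of its phenotype.

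Genes of brain signalling, and of other functions and cell types such as muscle, glands, immunity and ribosomes, were grouped by name into 18 lists, which held 126 tested genes. No member of any list was called. An unadjusted p under 0.05 was found for 4 members (3.17%, against 1.11% of all genes tested). The phenotypes did not overlap in 9 (7.14%, against 4.53%), and the interval lay within a 2-fold change in 103 (81.7%, against 89.1%). The 4 genes with an unadjusted p under 0.05 were FMRFamide-related peptides, retinol dehydrogenase 14, an odorant receptor 13a and beta-1,3-glucan-binding protein.

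Neuropeptide precursors were level between phenotypes. All 7 tested had intervals within a 2-fold change, and their median log2 fold change was -0.05 against 0.0072 for all genes tested. Prohormone-4 (LOC100642579), a precursor first found in honey bee brain, was the most abundant at 24597 to 28889 in the 6 pools, with a log2 fold change of 0.02 (interval -0.22 to 0.26). Diuretic hormone 44 (LOC100643185) had 2643, 2665 and 2552 in ovary-active and 2053, 2637 and 2292 in ovary-inactive brains, with overlap. Short neuropeptide F (LOC100643034), which promotes feeding in *Drosophila*, had a log2 fold change of 0.20 (interval -0.17 to 0.58). The exception in order was the FMRFamide-related peptide precursor (LOC100643671), which had 142, 133 and 182 in ovary-active and 226, 194 and 242 in ovary-inactive brains. Its phenotypes did not overlap, its log2 fold change was -0.54 (interval -0.94 to -0.14), and it was not called.

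Receptors of biogenic amines also lay within narrow bounds. Dopamine receptor 1 (LOC100642586) had 2283, 1709 and 1793 against 1798, 1658 and 1851, a log2 fold change of 0.11 (interval -0.19 to 0.42). The octopamine receptor Oamb (LOC100644660) had a log2 fold change of -0.11 (interval -0.40 to 0.18). Tyramine receptor 1 (LOC100642236) was lower in every ovary-active pool, with 426, 391 and 425 against 476, 481 and 463, by a log2 fold change of -0.19 whose interval of -0.41 to 0.02 includes 0. All 3 intervals lay within a 2-fold change.

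Of 11 tested genes of acetylcholine, GABA, glutamate and glycine transmission, 9 had intervals within a 2-fold change and none was called. Acetylcholinesterase (LOC100644218), which breaks down acetylcholine at the synapse, ranged from 7772 to 10667, and a GABA transporter (LOC100642415) from 6319 to 7612. The glutamate receptor U1 (LOC100643744) stood at 937 in ovary-active replicate 2 and at no more than 50.8 in the other 5 pools, so its log2 fold change of 2.01 had an interval of -1.07 to 5.09. The neuronal acetylcholine receptor subunit alpha-7 (LOC100643274) spread within the ovary-inactive phenotype instead, from 66.9 in replicate 2 to 386 in replicate 1. The 4 genes of vesicle release had log2 fold changes of -0.04 to 0.10.

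Hormone response genes spread widely between pools of the same phenotype, with a median SD between replicates of 0.44 on the log2 scale against 0.18 over all genes tested. None of the 12 tested genes of juvenile hormone, ecdysteroid and insulin signalling was called, and 7 had intervals within a 2-fold change. The transcription factor Kr-h1, which responds to juvenile hormone, had 165.9, 314.7 and 204.2 in ovary-active and 280.9, 116.4 and 146.5 in ovary-inactive brains, with a log2 fold change of 0.38 and an interval of -0.54 to 1.31. Ecdysone-inducible E75 (LOC100644185) was steadier, at 3153 to 4451. A vitellogenin-like precursor (LOC100643258), a relative of the yolk protein, stood at 46.8, 96.6 and 54.9 against 49.3, 44.3 and 39.8.

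The sex determination gene fem (feminizer) had a log2 fold change of 0.10 (interval -0.35 to 0.55). The gene for leucine-rich repeat-containing protein 70 (LOC100642443) had 85.9, 95.5 and 202 against 148, 52.1 and 45.6, with overlap.

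Sensory genes gave a mixed picture. All 5 tested chemosensory genes had positive log2 fold changes, 0.12 to 1.002, as had 5036 of the 9490 genes tested, and 2 of the 5 were higher in every ovary-active pool, against 1.84% of all genes tested. An odorant receptor 13a (LOC100643382) had 36.1, 56.6 and 40.6 in ovary-active and 23.7, 18.2 and 22.3 in ovary-inactive brains, a log2 fold change of 1.002 (interval 0.39 to 1.61) that was not called. The gustatory receptor for sugar taste 43a (LOC100643101) was also higher in every ovary-active pool, but only by 0.12. Long-wavelength rhodopsin (LOC100631086), the green photopigment of bee eyes, had 13636, 11836 and 11752 in ovary-active and 19876, 15031 and 13657 in ovary-inactive brains, without overlap, at a log2 fold change of -0.37 (interval -0.74 to 0.01). Another rhodopsin (LOC100631095) varied from 46.8 to 684 within the ovary-active phenotype alone. How much photoreceptor tissue each pool held was not tested.

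Immune genes were scarce in brain compared with fat body, at a median percentile of 27.3 against 91.8, and 3 of 7 had intervals within a 2-fold change. Beta-1,3-glucan-binding protein (LOC100642442), which recognises sugars of microbial walls, had 289, 237 and 295 in ovary-active and 413, 524 and 420 in ovary-inactive brains. It was lower in every ovary-active pool, with a log2 fold change of -0.72 (interval -1.07 to -0.37), and was called by DESeq2 but not by limma. The antimicrobial peptide gene Def was high in ovary-inactive replicate 1 alone, at 172 against 4.34 to 25.4 in the other pools.

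Pools of the same phenotype differed from each other about as widely as pools of different phenotypes. The median absolute log2 difference of a pair was 0.10 to 0.35 within phenotypes and 0.079 to 0.28 between them. The median SD between replicates on the log2 scale was 0.18 over all genes tested, and it was 0.098 in the ovary-active and 0.20 in the ovary-inactive phenotype. Across genes, Pearson's r between libraries was 0.957 to 0.990 for the 6 pairs of the same phenotype and 0.952 to 0.992 for the 9 pairs of different phenotypes, as a description in which genes are not independent. By the median absolute log2 difference, the closest pair was ovary-active replicate 3 and ovary-inactive replicate 3 (0.079), with 143 genes over 2-fold apart. By the same measure the most distant pair was ovary-inactive replicates 1 and 2 (0.35), with 969 genes. In a principal component analysis of the 2000 most abundant genes, component 1 (76.4% of the variance) set ovary-active replicate 2 apart and component 2 (20.4%) set ovary-inactive replicates 1 and 2 at opposite ends. Neither separated the phenotypes.

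Ovary-inactive replicates 1 and 2 were the extremes of a large part of the transcriptome. They were the highest and the lowest library, in either order, for 4262 genes (44.9%). For 2229 genes replicate 1 was highest and replicate 2 lowest, and for 2033 the reverse held. By contrast, the highest and the lowest library belonged to different phenotypes in 3846 genes (40.5%). Among genes with a mean of at least 50, ovary-inactive replicate 2, the pool of 14 workers, had 255 genes over 2-fold below the median of the other libraries and 60 above it. Ovary-inactive replicate 1 had 17 below and 122 above. The other pools had 47 to 166 such genes in both directions together. The origin of this axis in pool size, colony, dissection or RNA quality was not tested.

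Genes with known roles fell on both sides of this axis. Higher in ovary-inactive replicate 1 and lower in replicate 2 were regulators such as the zinc finger protein chinmo (LOC100644484), which sets neuron identity in *Drosophila*, at 801 and 116 against 293 to 353 in the other 4 pools. Period (LOC100631060), a core repressor of the circadian clock, had 4541 and 1670 against 2751 to 3617. HERC2 (LOC100643236), a ubiquitin ligase, had 571 and 50.4 against 135 to 216. Synaptosomal-associated protein 25 (LOC100643971) stood at 28293 and 13987 against 18615 to 20181, and para (LOC100642930) at 11102 and 5431 against 6887 to 8538.

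The opposite order held for genes of protein synthesis and respiration. Over 22 tested cytosolic ribosomal proteins the median log2 difference from the 6-library median was 0.48 in ovary-inactive replicate 2 and -0.28 in replicate 1. Over 16 subunits of the respiratory chain and ATP synthase it was 0.41 and -0.23. Ubiquitin-60S ribosomal protein L40 (LOC100643509) had 22019 and 11971 against 13821 to 15878 in the other 4 pools. Between phenotypes these lists differed little, with median log2 fold changes of -0.07 and -0.06 against 0.0072 over all genes tested, and 0 members called.

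**Figure D4:**
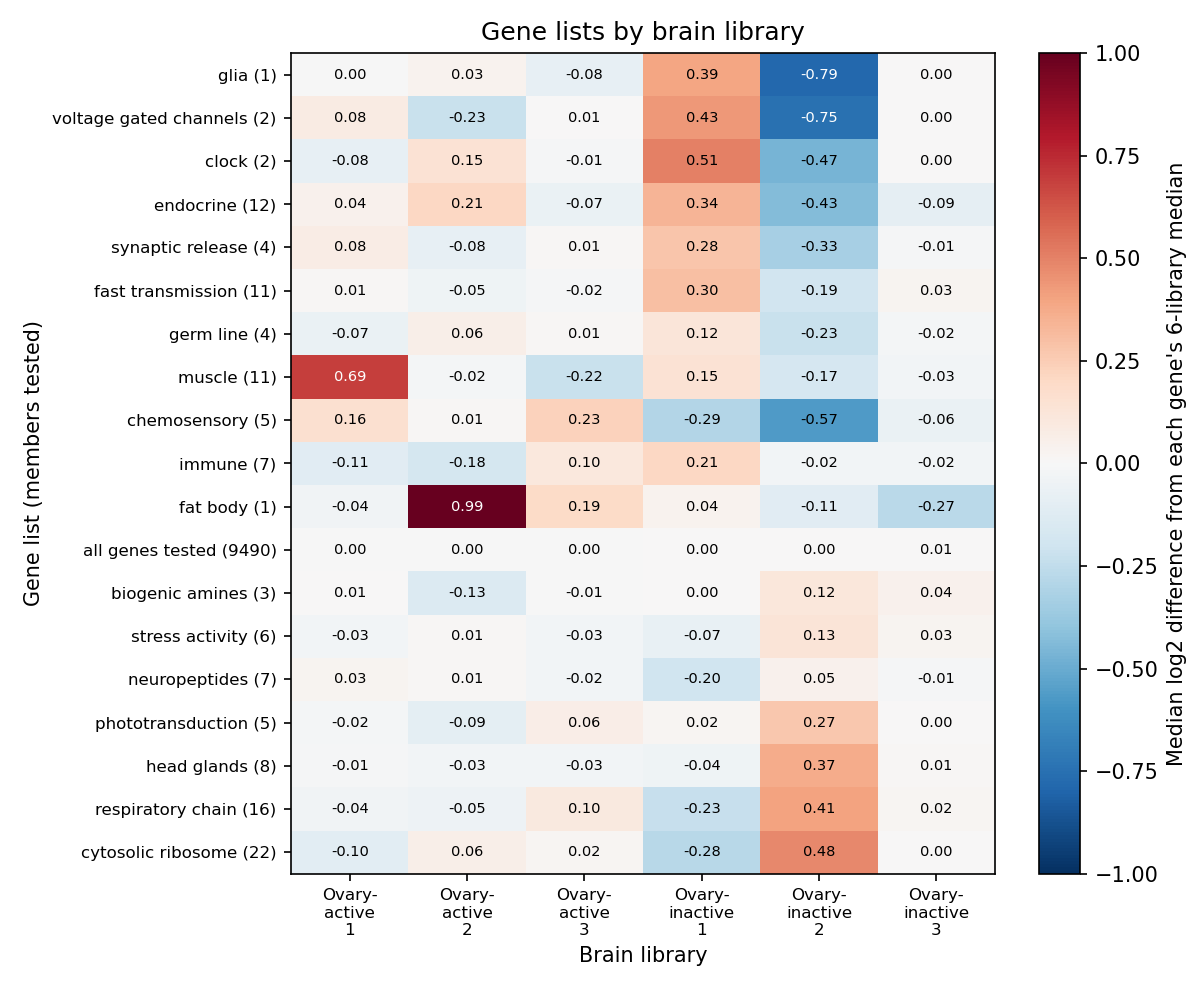
Median log2 difference from each gene's 6-library median, for each gene list (rows, members tested in parentheses) and each brain library (columns), with red above and blue below. Lists of channels, clock, endocrine and synaptic genes are positive in ovary-inactive replicate 1 and negative in replicate 2, ribosomal and respiratory lists show the reverse order, and the muscle list is highest in ovary-active replicate 1.

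Markers of tissue around the brain varied by pool. Among 11 muscle genes none was called. A titin gene (LOC100642449) had 761, 30.1 and 35.6 in ovary-active and 73.5, 335 and 118 in ovary-inactive brains, troponin I (LOC100642480) had 1671, 132 and 186 against 167, 774 and 311, and myosin regulatory light chain 2 (LOC100642903) had 1513, 140 and 112 against 152, 630 and 252. The 3 genes of contraction were thus highest in ovary-active replicate 1 and next highest in ovary-inactive replicate 2. Of the 11 muscle genes, 10 lay above the median of the other libraries in ovary-active replicate 1 (median log2 difference 0.69). In ovary-inactive replicate 2 only 4 did (median -0.17), so the list did not rise there as a whole. Another titin gene, LOC100642686, did not follow them and ranged from 18261 to 29846. Summed over the list, muscle genes held 31741 to 48617 normalized counts a library, with the lowest sum in ovary-inactive replicate 2. Of the head gland genes, silk fibroins F1 and F3 stood at under 5 in every pool. Of the 8 tested members of this list, 8 lay above the median of the other libraries in ovary-inactive replicate 2. In ovary-active replicate 2 only 3 did, and the list did not rise there as a whole (median log2 difference -0.03), although RJPL was high. In that same pool 2 chaperones of the endoplasmic reticulum, chosen after their values were seen, were higher than in any other. Heat shock 70 kDa protein cognate 3 (LOC100644323) stood at 37234 against 12459 to 19260 elsewhere, and calreticulin (LOC100643307) at 31996 against 16065 to 20563. Heat shock 70 kDa protein cognate 5 (LOC100644048), a mitochondrial member of the family, was even at 9770 to 10310.

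By size, the phenotype difference was smallest in brain and largest in ovary. The median absolute log2 fold change was 0.068 in brain against 0.18 in fat body and 0.62 in ovary. An absolute log2 fold change over 1 was found for 0.948% of genes tested in brain, 3.24% in fat body and 30.6% in the ovary. Replicates of a phenotype had a median SD of 0.18 (brain), 0.15 (fat body) and 0.25 (ovary). The difference between the effects was tested by the interaction of phenotype and tissue in limma, which treats the libraries of a tissue pair as independent although the tissues came in part from the same workers. Against ovary, the effect differed in 3995 of 9097 genes (43.9%), with 2045 (22.5%) higher and 1950 (21.4%) lower in brain.

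Against fat body, the effect differed in 24 of 8668 genes (0.277%), with 12 (0.138%) higher and 12 (0.138%) lower in brain. Leaving out any ovary-active replicate or ovary-inactive replicate 3 of brain reduced these counts to 2 to 4 and 1 to 3. In 23 of these 24 genes the log2 fold change in brain was under 0.5 in size, as it was in 96.9% of all genes tested in brain. That in fat body was over 0.5 in all of them, which follows largely from choosing genes by the difference between the tissues. Peroxiredoxin-6 (LOC100644139), an antioxidant enzyme, had log2 fold changes of -0.13 in brain and 1.83 in fat body. Laminin subunit beta-1 (LOC100642555), of the basement membrane, had 0.04 and 1.31, and a calcitonin gene-related peptide type 1 receptor (LOC100645019) had -0.11 and -1.64. Neither brain DEG passed this test against fat body, and the brain effect exceeded that of fat body by 0.64 (SE 0.82) for LOC100648536 and by 1.44 (SE 1.11) for LOC105665834.

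**Figure D5:**
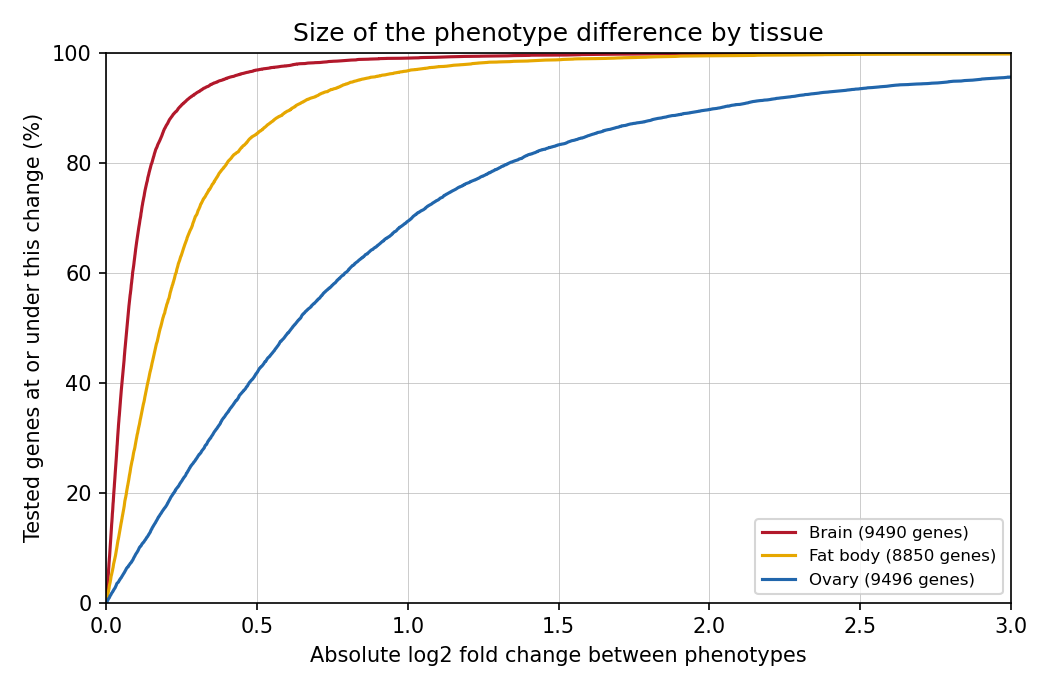
Share of tested genes (vertical axis, percent) at or under each absolute log2 fold change between phenotypes (horizontal axis) in brain, fat body and ovary. The brain curve rises fastest, with 96.9% of genes under 0.5, against 85.4% in fat body and 41.9% in ovary.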

How the data were processed

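Per the labels and methods of the study, the authors built stranded mRNA libraries (50-base reads, 3 lanes), pseudoaligned the reads with kallisto 0.46.1 to the Bter_1.0 transcriptome, and normalized gene counts with DESeq2 1.34.0 in R 4.1.3. The authors deposited signal values for brain, fat body and ovary, namely counts normalized within each tissue, which are neither logarithms nor divided by length. The estimated counts of eggs, as deposited by the authors, were read for the called genes only. In brain, 5847 genes were whole multiples of the value of 1 read in all libraries (tolerance 0.02 reads). Ovary-inactive replicate 3 held only whole multiples, unlike the other libraries of brain.

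Phenotypes were compared by limma 3.58.1 under R 4.3.3 after a log2(normalized count + 1) transformation, using a variance trend, for genes with a mean of at least 10. Calls were made at an adjusted p under 0.05 (Benjamini-Hochberg). Replicates are pools, so p-values measure the spread between pools. Whole-read genes were also tested by edgeR 4.0.16 and DESeq2 1.42.0, and the remaining alternatives changed the pseudocount, filter, scaling, weights and libraries. The fits were tested on data simulated with changes in known genes. The brain fit called 44% of genes with a log2 change of 1 and 88% of those with 2. The interaction called 21% and 79%. Genes without a change made up 5.04% and 5.66% of the calls. These rates belong to the simulated data, and whether they hold for the brain pools was not tested. In the brain pools, ovary-inactive replicates 1 and 2 were the extremes for 44.9% of genes. By limma, 1.11% of the genes tested there had an unadjusted p under 0.05. Python 3.11.15 and matplotlib 3.10.9 served for tables and figures.

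The genes named were the called genes, the 15 with the highest mean, the 6 per direction with the largest change without overlap, the 10 with the largest spread, 3 per list, genes that the text of the study names, 15 ovary markers, and the 10 that deviate most in a single library. Other genes, such as the named genes of the pool axis and of the abundance ranks, were chosen after their values were seen. A ranking by level per length was planned and not run, as lengths of the build were not used here. The study names 2 further brain genes without an identifier, and they were not matched. Names came from tables of the study for 2209 of 10043 genes, and 9447 genes matched RefSeq assembly iyBomTerr1.2. The members and lists were chosen with earlier results of these data known.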

Additional observations from a re-analysis of the deposited data

Results flagged for a closer look

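The effect of the phenotype differed between brain and ovary in 2045 genes with a higher and 1950 genes with a lower effect in brain, by the interaction term of limma. The brain effect minus the ovary effect was -8.996 on the log2 scale for LOC100648536 and -7.797 for LOC105665834. Between brain and fat body the effect differed in 12 genes with a higher and 12 with a lower value in brain.

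Counts of the called genes were also above 0 in eggs laid by workers, which enter no comparison here. LOC100648536 had 567.2 and 643.3 estimated counts in the 2 egg libraries. LOC105665834 had 15.63 in replicate 1 and only 2.79 in replicate 2, which are low counts. The study did not class LOC105665834 as expressed in eggs, and kept it when egg-expressed genes were excluded.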

How the results depend on the processing

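The counts of brain DEGs (2 ovary-active and 0 ovary-inactive) were the same with pseudocounts of 0.5 and 5, without the filter, with TMM scaling, without the variance trend, with robust moderation, at an adjusted p under 0.10, with edgeR, and on whole-read genes only, where 4669 of 5364 genes had an interval within a 2-fold change. The ovary-active count was 0 with a mean of at least 50, which drops LOC105665834 from the test and leaves LOC100648536 at an adjusted p of 0.107 by limma. It ranged from 0 to 0 without each replicate in turn, with 0 ovary-inactive DEGs each time, 67 to 236 genes at an unadjusted p under 0.05, and 7922 to 8470 genes within a 2-fold change. It was also 0 without ovary-active replicate 2 and ovary-inactive replicate 1, an alternative chosen after seeing the data like that on whole-read genes. Scaling to the library total moved the median of all log2 fold changes to -0.10, since ovary-active replicate 2 has the largest total, and gave 3 and 1 DEGs. DESeq2 gave 3 and 3. Library quality weights, whose estimation stopped before convergence, gave 16 and 18, with 1657 genes at an unadjusted p under 0.05, and the cause was not tested. Pools were matched by age, without a full account of which numbers mark a match, and correlations between same-numbered libraries were -0.22, -0.11 and 0.25. A replicate block gave 0 and 0 brain DEGs.

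Against fat body, the 12 higher and 12 lower genes became 2 and 0 with the replicate block, 6 and 9 scaled to the total, 3 and 3 without both pools named above, 2 to 11 and 1 to 13 without each replicate, with the lowest counts without ovary-active replicate 1. Against ovary, scaling to the total gave 2273 and 1000 in place of 2045 and 1950, the replicate block 1639 and 1506, and leaving out each replicate 1653 to 2271 and 1554 to 2073. In simulated data the brain fit called 44% of genes with a log2 change of 1, over all abundances together. Differences of that size were thus often not called in the simulated data, and whether the rate holds for the brain pools was not tested. In the brain data, intervals were widest in genes with a mean under 100.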

Other observations

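Some single genes set pools apart without regard to phenotype. LOC105666524 stood at 27.3, 810 and 27.4 in ovary-active and 8.87, 1269 and 697 in ovary-inactive brains, so that 3 pools were high and 3 low across both phenotypes. An uncharacterized gene, LOC100642610, had 2075 and 1731 in ovary-active replicates 1 and 2 and 86.3 to 412 in the other 4 pools. RNA-binding protein 38 (LOC100643291) had 76.8 and 305 in the same 2 ovary-active pools and 2.91 to 11.4 elsewhere. Homeotic protein deformed (LOC100642982), which patterns head segments in *Drosophila*, had 2346 in ovary-active replicate 2 and 64.0 to 127 in the other pools. These genes were chosen after their values were seen.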
